A study of Mus musculus with 4 samples.

Results

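The genes described here encode lysosomal enzymes, lysosomal membrane proteins and the proton pump that acidifies the lysosome. They were taken by name from a list of 41 genes, from which the cathepsins were left out on purpose. The list falls into 10 roles, and 40 of its 41 genes were matched by symbol among the 31053 genes of the count tables; Ifi30 was not analysed here. Their RNA was counted in single live CD45.2+ immune cells sorted from the lungs of 2 Lmna-KO and 2 WT mice. The Lmna-KO mice carried Lmna-flox/flox together with the Vav1-cre transgene (Vav1-cre+/-), and the WT mice carried the same floxed alleles without Cre (Lmna-flox/flox, Vav1-cre-/-). All were C57BL/6J mice aged 10 weeks, with 2 libraries per genotype. Vav1-cre drives the recombinase in blood-forming cells and the cells that descend from them, and recombination in lung structural cells was not tested. Because the WT mice lacked Cre, the presence of Cre and the loss of Lmna cannot be told apart.

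Lysosomes are acidic compartments in which proteins, lipids and sugar chains delivered by phagocytosis, endocytosis or autophagy are digested. The vacuolar ATPase, built of a membrane sector (V0) and a cytosolic sector (V1), pumps protons into them, heavily glycosylated membrane proteins such as LAMP-1 and LAMP-2 line the membrane, and soluble hydrolases work inside. Alveolar macrophages, the resident phagocytes of the airspace, clear surfactant lipids and inhaled particles through this route, and Lmna encodes lamins A and C of the nuclear lamina.

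The 4 libraries held 4164 and 3860 cell barcodes in Lmna-KO and 4322 and 4182 in WT, with 21780914 and 21849805 UMIs (unique molecules counted) in Lmna-KO and 26433722 and 27045250 UMIs in WT. After removal of poor cells and predicted doublets, 3655 and 3488 Lmna-KO cells and 3817 and 3760 WT cells remained, and any pair of libraries shared 2 to 7 barcodes. Clusters built without the 40 genes were named from marker genes, and 9 classes had at least 25 cells in every library. The WT 2 library stood apart: it held 441 cells that carried markers of T cell precursors, against 0 and 11 in Lmna-KO 1 and 2 and 0 in WT 1, and those cells were in none of the 9 classes. In all 9 classes the 2 libraries of a genotype were further apart than counting noise allows (chi-square of 1.77 to 6.50 for each degree of freedom). The labels name no batch or sorting day.

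Alveolar macrophage-like cells numbered 52 and 34 in Lmna-KO and 219 and 232 in WT, which was 1.42% and 0.975% of Lmna-KO cells against 5.74% and 6.17% of WT cells. Their 11 markers, among them Chil3, Ear1, Siglecf, Marco and Car4, each had UMIs in all 4 libraries and summed to 23708 and 20215 CPM (UMIs scaled to a common library total) in Lmna-KO and to 23746 and 23794 CPM in WT. Chil3 made up most of that sum, and single markers shifted: 6 of the 11 were lower and 2 higher in both Lmna-KO libraries than in both WT libraries. Ear2 had 1129 and 1209 CPM in Lmna-KO and 1787 and 1939 in WT, Mrc1 744 and 694 in Lmna-KO and 1173 and 1116 in WT, and Marco 1114 and 888 in Lmna-KO and 633 and 635 in WT. The part of these shifts in the results below was not tested. Lmna had 58.5 and 75.9 normalised CPM in the Lmna-KO class and 373 and 329 in the WT class (log2 difference -2.39, SE 0.18, adjusted p = 1.21e-12). Lmna was also lower in NK cell-like cells (log2 difference -1.59, SE 0.41, adjusted p = 0.0387). Its values in classes other than these and classical monocyte-like cells are not given here. In classical monocyte-like cells no fall was seen: 13 and 29 UMIs in Lmna-KO and 12 and 25 in WT gave 8.99 ± 3.82 and 9.27 ± 3.43 normalised CPM (SD, n = 2 each), a log2 difference of -0.043 (SE 0.40, adjusted p = 0.985). The genotype label was therefore borne out by Lmna RNA in alveolar macrophage-like and NK cell-like cells and not in classical monocyte-like cells; the floxed exons are not named in the labels, so 3-prime UMIs may remain after deletion, and the part of free RNA was not tested.

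Across the 9 classes the list was mainly a myeloid and above all an alveolar macrophage list. Classes with fewer cells were not ranked, and their sums of the 40 genes varied. In WT the sums were 11008 and 11639 CPM in plasmacytoid dendritic cell-like cells and 10380 and 10334 CPM in platelet-like cells. Gamma-delta T cell-like cells had 2829 and 3100 CPM in WT. In WT, 26 of the 40 genes had their highest mean CPM in alveolar macrophage-like cells, and for 22 of these both libraries lay above both libraries of the next class; in Lmna-KO it was 27 of 40. In this description CPM is relative to all UMIs of the class in that library, and the classes of 1 library share its preparation. Lipa, the lysosomal acid lipase that cleaves cholesteryl esters and triglycerides, stood at 492 ± 34.9 CPM in WT alveolar macrophage-like cells, against 117 ± 4.99 CPM in the next class, classical monocyte-like cells (SD, n = 2 each). Tpp1, a tripeptidyl peptidase, stood at 223 ± 12.1 CPM against 55.3 ± 12.9 CPM in NK cell-like cells, the next class. Npc1, which exports cholesterol from the lysosome membrane, had 161 ± 18.3 CPM against 64.4 ± 7.25 CPM in NK cell-like cells. Among the 9 classes the gap to the next was wider than the spread of the libraries for these genes. Interstitial macrophage-like cells, too few to be 1 of the 9, had 163 and 236 CPM of Lipa, 166 and 157 CPM of Tpp1 and 68.6 and 78.7 CPM of Npc1 in WT; for Lipa and Tpp1 this was nearer to alveolar macrophage-like cells than any of the other 8 classes. Lgmn was higher there, at 472 and 616 CPM, against 240.3 and 240.4 CPM in WT alveolar macrophage-like cells.

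The remaining genes were highest in another class in WT. Psap and Npc2 had their highest WT level in classical monocyte-like cells, with Psap at 3486 ± 69.2 CPM there and 2843 ± 89.8 CPM in alveolar macrophage-like cells. Among the 9 classes in Lmna-KO, Psap and Lamp1 had their highest mean in alveolar macrophage-like cells. For Psap the libraries there (4218 and 4333 CPM) overlapped those of classical monocyte-like cells (4289.7 and 4135 CPM). Lamp1 was also highest in WT classical monocyte-like cells (964 ± 49.3 CPM), but its alveolar macrophage-like level of 915 ± 52.4 CPM overlapped it. Lamp2, which is needed for fusion of autophagosomes with lysosomes, was highest in neutrophil-like cells at 595 ± 66.3 CPM. Gm2a, the activator protein for breakdown of the ganglioside GM2, Man2b1, the lysosomal alpha-mannosidase, and Tfeb, the transcription factor that switches on lysosomal genes, were highest in nonclassical monocyte-like cells. At the low end, Lgmn and Cd68 were near the floor in T cell-like classes: Lgmn had 1.92 and 0 CPM in WT CD8 T cell-like cells, and Cd68 had 1.49 ± 0.516 CPM in WT CD4 T cell-like cells.

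**Figure D1:**
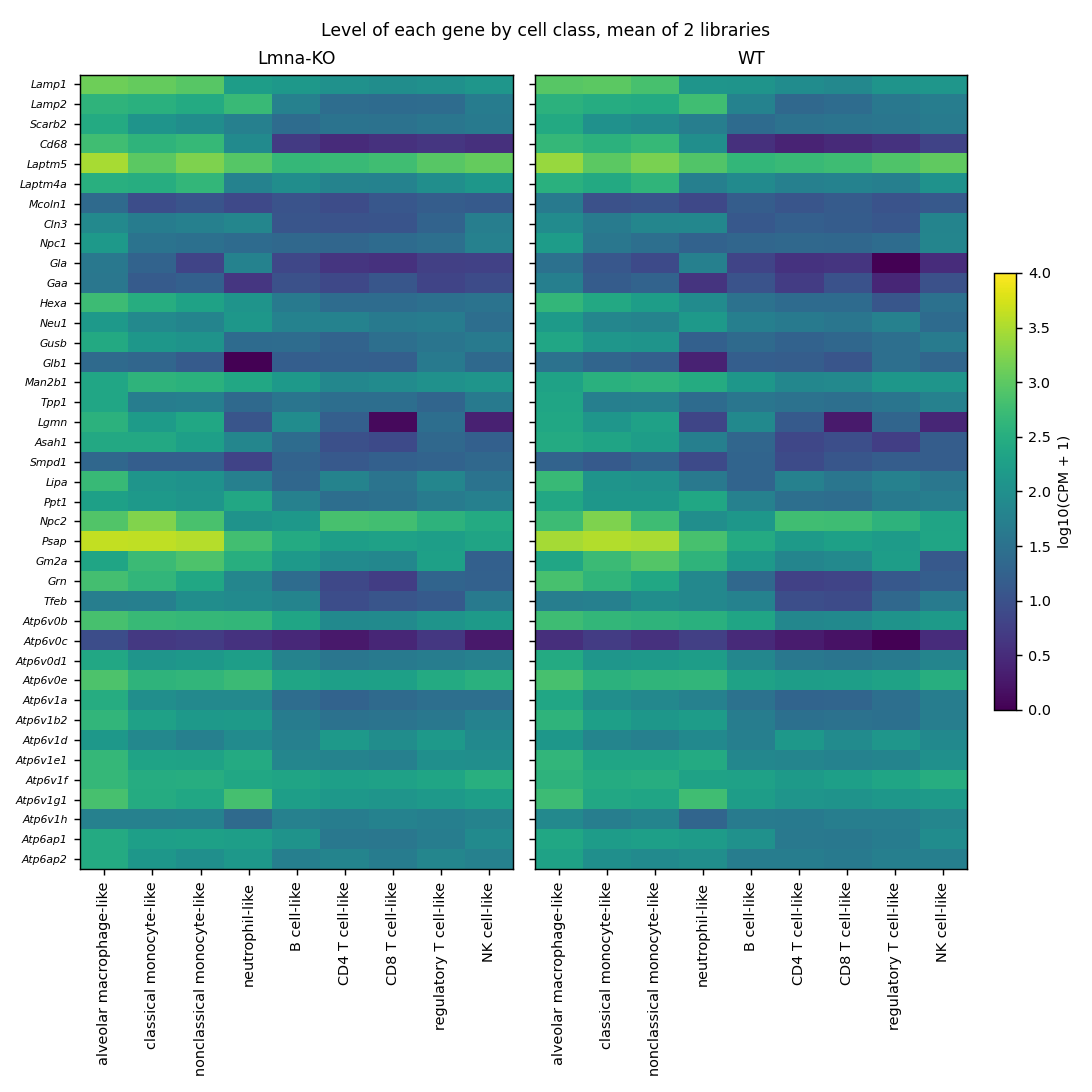
Mean level of each of the 40 genes in the 9 classes, Lmna-KO on the left and WT on the right, as log10(CPM + 1) over 2 libraries each, genes in rows by role. In both genotypes the alveolar macrophage-like and monocyte-like columns are brightest, and 26 of the 40 genes peak in the alveolar macrophage-like column in WT.

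In alveolar macrophage-like cells of Lmna-KO lungs, 5 lysosomal genes were higher than in WT and 0 were lower at an adjusted p under 0.05. The 5 were Psap, Lgmn, Npc2, Lamp1 and Atp6ap2, each 1.40-fold to 1.58-fold higher. They span an activator precursor, a protease, a sterol carrier, a membrane glycoprotein and a pump accessory subunit. All 40 genes were tested, among 8990 genes in edgeR's quasi-likelihood test with Benjamini-Hochberg adjustment; over all genes 3.36% were called higher and 2.8% lower (302 and 252 genes; 218 and 282 with library totals as the only scaling). The log2 difference was positive for 28 of the 40 and negative for 12, with a median of 0.15, where the median of all genes tested was 0.0049. Both Lmna-KO libraries lay above both WT libraries for 24 of the 40 genes, where 24.8% of all genes did so, and below them for 5, where 25.8% did. At an unadjusted p under 0.05 there were 15 of the 40, where 18.8% of all genes passed.

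Psap encodes prosaposin, which is cut into the saposins that help lysosomal enzymes reach sphingolipids. Its normalised CPM (scaled by TMM factors within the class) was 4321 and 4396 in Lmna-KO and 2699 and 2882 in WT. Both Lmna-KO libraries stood well above both WT libraries, and the log2 difference was 0.64 (SE 0.13, adjusted p = 0.00138). Npc2, the soluble carrier that hands cholesterol to NPC1, had 906 and 771 normalised CPM in Lmna-KO and 549 and 538 in WT. The lowest Lmna-KO library was above the highest WT library, with a log2 difference of 0.63 (SE 0.14, adjusted p = 0.00337). The other genes for lipid hydrolases and activators did not pass the test: Lipa differed by 0.078, the acid ceramidase gene Asah1 by -0.075, the acid sphingomyelinase gene Smpd1 by 0.28, Gm2a by 0.011 and the palmitoyl-protein thioesterase gene Ppt1 by -0.34 on the log2 scale. The 7 genes of this role therefore split into 2 that rose and 5 that were not called, on both sides of 0.

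Lgmn encodes legumain, a protease that cuts after asparagine and processes other lysosomal proteases. It had 342 and 403 normalised CPM in Lmna-KO and 233 and 238 in WT. The WT libraries lay within a few CPM of each other and below both Lmna-KO libraries, and the log2 difference was 0.66 (SE 0.14, adjusted p = 0.0031). The other peptidase measured, Tpp1, differed by 0.11 and its libraries overlapped between genotypes.

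Lamp1, one of the most abundant glycoproteins of the lysosomal membrane, had 1437 and 1242 normalised CPM in Lmna-KO and 853 and 944 in WT. The libraries of each genotype differed among themselves without meeting the other genotype, and the log2 difference was 0.58 (SE 0.14, adjusted p = 0.00616). Cd68, the macrophage member of the LAMP family, had 662 and 547 normalised CPM in Lmna-KO and 475 and 424 in WT, and Laptm5, a transmembrane protein of blood cell lysosomes, had 3108 and 2909 in Lmna-KO and 2166 and 2493 in WT. Neither passed the test, although the libraries of both genes were apart (Cd68 log2 difference 0.43, adjusted p = 0.0657; Laptm5 0.37, adjusted p = 0.0955). Lamp2, Scarb2, the carrier of glucocerebrosidase to lysosomes, and Laptm4a differed by 0.14, 0.094 and -0.024 on the log2 scale.

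Of the 13 proton pump genes, Atp6ap2 alone was called. Its product, also known as the (pro)renin receptor, is an accessory subunit used in assembly of the pump. It had 299 and 263 normalised CPM in Lmna-KO and 198 and 203 in WT, with both Lmna-KO libraries above both WT libraries and a log2 difference of 0.49 (SE 0.15, adjusted p = 0.036). This call was lost in 9 of 13 alternatives, among them DESeq2 (adjusted p = 0.209), library totals as the only scaling (0.0704) and the stricter cell filter (0.0777), over a range of 0.0349 to 0.482. Among the pump genes with the highest counts, Atp6v0e had 813 and 766 normalised CPM in Lmna-KO and 654 and 697 in WT, and Atp6v0b had 741 and 668 in Lmna-KO and 520.0 and 611 in WT. Atp6v1g1, a subunit of the V1 stalk, had 712 and 661 in Lmna-KO and 528 and 560.1 in WT. In these 3 genes the libraries were apart and the differences of 0.23, 0.32 and 0.34 were not called (adjusted p = 0.395, 0.194 and 0.152). The 7 genes of the V1 sector ran from -0.31 for Atp6v1h to 0.39 for Atp6v1a, which encodes the catalytic subunit. Atp6v0c, the proton-carrying ring subunit, had 6 and 4 UMIs in Lmna-KO and 7 and 9 in WT, so its log2 difference of 1.74 (SE 0.70, adjusted p = 0.143) rests on very few molecules; it also has near-identical processed pseudogenes, so its count is uncertain.

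The 7 glycosidase genes ran from -0.39 for Gaa, the acid alpha-glucosidase, to 0.42 for Gla, the alpha-galactosidase, and none was called. Hexa, which encodes the alpha subunit of beta-hexosaminidase, had a log2 difference of 0.33 (adjusted p = 0.178). Grn, the progranulin precursor gene, had 681 and 636 normalised CPM in Lmna-KO and 739 and 619 in WT, and its libraries overlapped. Tfeb differed by 0.065 with overlapping libraries (adjusted p = 0.919). The 3 channel and transporter genes all had negative differences: Mcoln1 -0.86, Npc1 -0.16 and Cln3 -0.071. Mcoln1, which encodes the calcium-permeable lysosomal channel TRPML1, is described further because its difference was the lowest of the 40, a choice made after its values were seen. It had 24.6 and 21.9 normalised CPM in Lmna-KO and 48.3 and 36.4 in WT, from 16 and 13 UMIs in Lmna-KO and 179 and 112 UMIs in WT. Both Lmna-KO libraries were below both WT libraries, and the adjusted p was 0.0604 (SE 0.28); it was 0.031 with no filter on low counts and 0.0451 with the replicate number as a block.

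The call of each of the 5 genes was lost without WT 1 (adjusted p of 0.249 to 0.482) and without WT 2 (0.114 to 0.280), while the log2 differences stayed between 0.47 and 0.69. Without Lmna-KO 1, Psap and Lgmn were called, and without Lmna-KO 2, Psap, Npc2, Lamp1, Atp6ap2 and, in addition, Cd68. The class also held fewer cells in Lmna-KO, with 664930 and 601136 UMIs against 3600023 and 3053365 in WT; the median UMIs per cell were 13665 and 16861 in Lmna-KO and 16919 and 13440 in WT. The 8 interstitial macrophage markers summed to 111 and 179.7 CPM in the Lmna-KO class and to 116 and 234 CPM in the WT class, with C1qa at 0 UMIs in both Lmna-KO libraries and at 1 and 61 UMIs in WT. The 6 classical monocyte markers summed to 199 and 479 CPM in Lmna-KO and 634 and 653 CPM in WT, and the 7 nonclassical monocyte markers to 328 and 507 CPM in Lmna-KO and 281 and 325 CPM in WT. The part of these markers and of the cell numbers in the 5 calls was not tested. The 5 genes had the same direction in all 13 alternative analyses, which reuse the same counts. Since both Lmna-KO libraries lay above both WT libraries for each gene, leaving out 1 library could hardly have turned a direction.

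**Figure D2:**
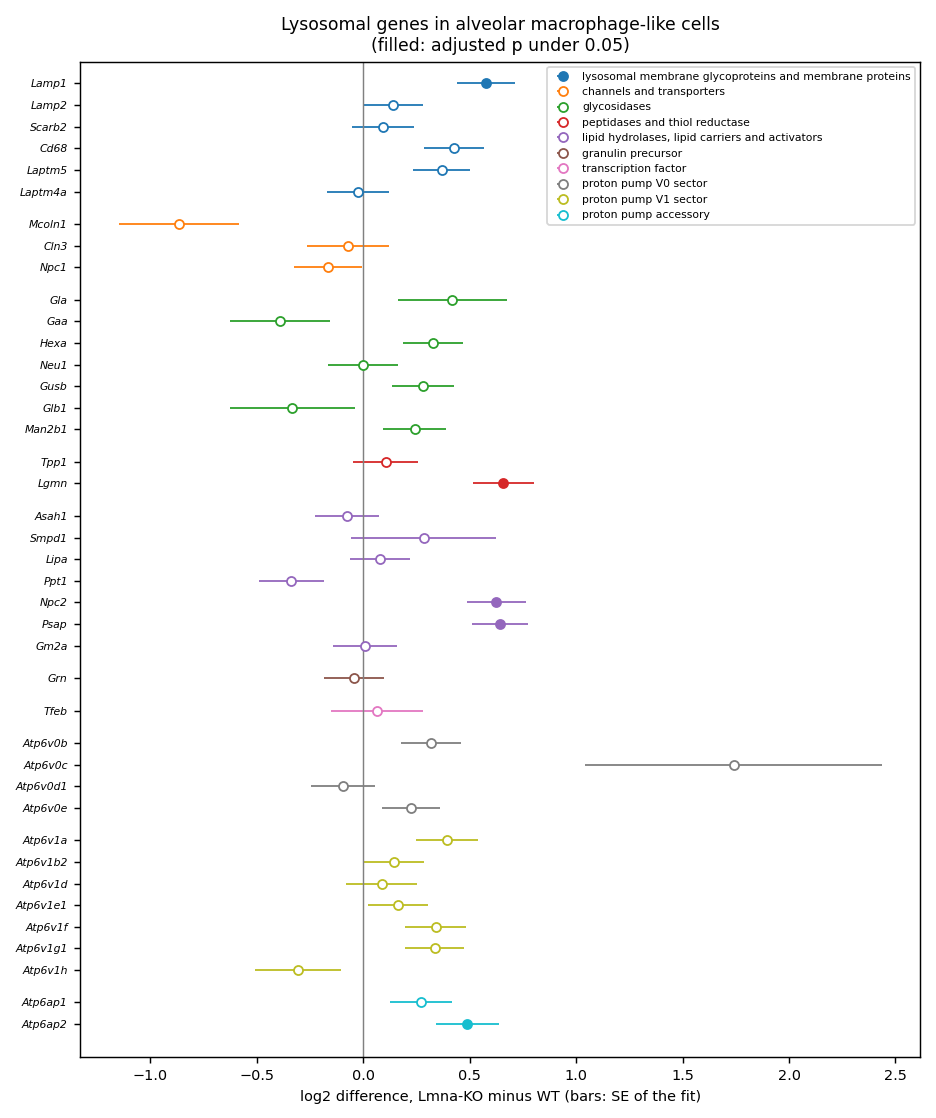
Log2 difference (Lmna-KO minus WT) of the 40 genes in alveolar macrophage-like cells, by role; bars are the SE of the edgeR fit and filled points passed an adjusted p of 0.05. The 5 filled points, Lamp1, Lgmn, Npc2, Psap and Atp6ap2, lie between 0.49 and 0.66, and Mcoln1 is the lowest at -0.86.

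**Figure D3:**
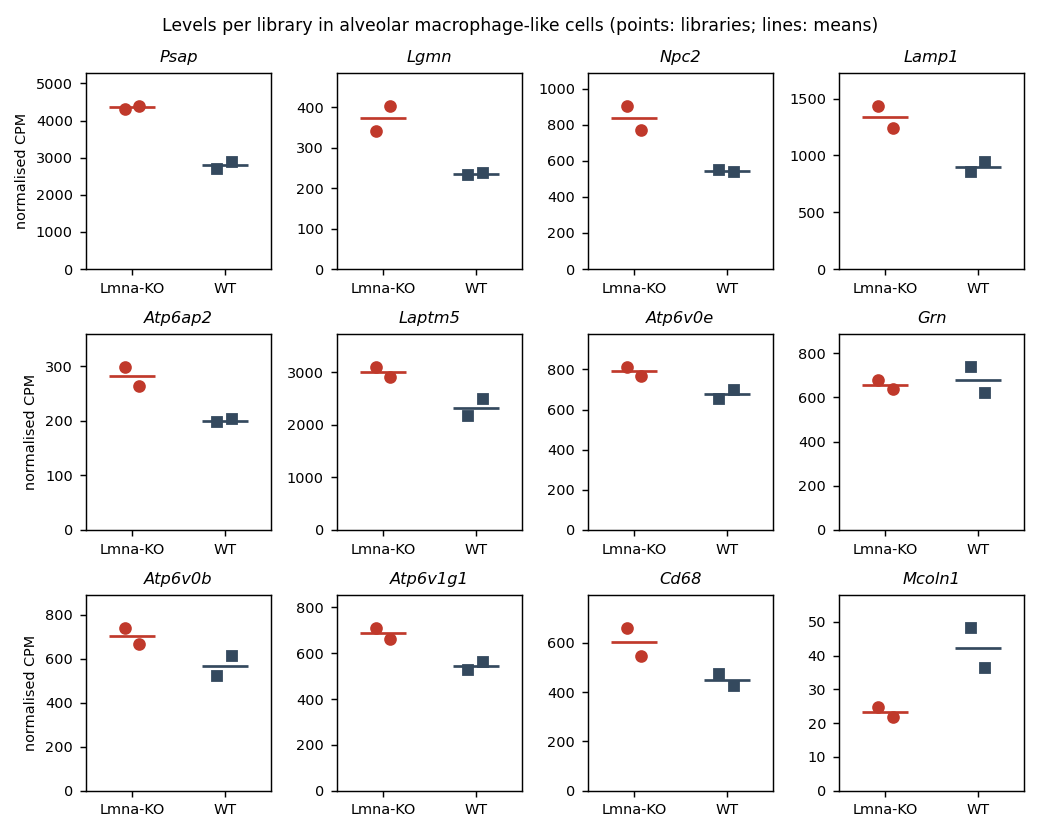
Normalised CPM in alveolar macrophage-like cells for the 5 called genes, 6 further genes with the highest mean level and Mcoln1; each point is a library, Lmna-KO on the left and WT on the right, lines are means, and each vertical axis starts at 0. The libraries of the genotypes are apart in every panel but that of Grn.

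The promoters of the genes were read to see whether the list shares a sequence feature with its changes. TFEB and its relatives bind the CLEAR element, whose core CACGTG is its own reverse complement. RefSeq promoters (GRCm38.p6, 250 bases before to 50 after the start) were found for 35 of the 40 genes. Lamp1, Mcoln1 and Psap are shown, a called gene with the core motif, the gene with the lowest difference and the called gene with the smallest p; each is given 5′ to 3′ on the gene's strand with CACGTG, or TCACGTGA where it is present, in capitals.
Lamp1: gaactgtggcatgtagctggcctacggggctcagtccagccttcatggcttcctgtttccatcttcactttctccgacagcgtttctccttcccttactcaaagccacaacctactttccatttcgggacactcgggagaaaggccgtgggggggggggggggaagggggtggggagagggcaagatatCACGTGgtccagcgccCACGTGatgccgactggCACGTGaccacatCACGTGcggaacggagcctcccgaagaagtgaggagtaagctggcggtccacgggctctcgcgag
Mcoln1: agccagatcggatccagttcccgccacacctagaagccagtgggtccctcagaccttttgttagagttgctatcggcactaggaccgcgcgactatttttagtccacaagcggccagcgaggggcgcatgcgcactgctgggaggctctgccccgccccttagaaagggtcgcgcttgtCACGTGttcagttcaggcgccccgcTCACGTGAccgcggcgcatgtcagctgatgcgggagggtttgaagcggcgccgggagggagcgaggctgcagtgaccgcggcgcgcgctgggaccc
Psap: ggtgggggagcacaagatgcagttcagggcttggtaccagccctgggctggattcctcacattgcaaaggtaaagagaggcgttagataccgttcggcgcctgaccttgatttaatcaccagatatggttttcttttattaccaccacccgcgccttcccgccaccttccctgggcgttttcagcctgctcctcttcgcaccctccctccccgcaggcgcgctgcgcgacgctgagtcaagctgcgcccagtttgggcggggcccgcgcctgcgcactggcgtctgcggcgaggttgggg
The Lamp1 stretch is chr8:13158911-13159210 (plus strand), the Mcoln1 stretch chr8:3500269-3500568 (plus strand) and the Psap stretch chr10:60277378-60277677 (plus strand). Lamp1 has 4 copies of CACGTG, the first starting at -61 and the last at -15 from the start site, Mcoln1 has 2, at -71 and -45, and Psap has 0.

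CACGTG was present in 9 of the 35 promoters (25.7%), where 7.15% of 32851 promoters of the genome's genes held it. TCACGTGA was in 5 of 35 (14.3%, against 0.974%), and the full CLEAR palindrome in 0 of 35 (against 0.326%). TGANTCA, where N is any base, takes in the site bound by AP-1 and other sequences. It was in 5 of 35 (14.3%, against 7.81%). All 4 motifs read the same on both strands, and CACGTG lies within the longer CLEAR forms. The 9 genes with CACGTG were Lamp1, Mcoln1, Gla, Gaa, Glb1, Atp6v0b, Atp6v0d1, Atp6v0e and Atp6v1a. They included 1 of the 5 called genes, and their median log2 difference in alveolar macrophage-like cells was 0.23, from -0.86 to 0.58. The 26 genes without it included 4 called genes and had a median of 0.20, from -0.34 to 1.74. The medians with and without the motif were close, in a description of 35 genes without a test. For Lgmn and Cln3 the promoter nearest to the annotated gene start was used, and another listed promoter of each held CACGTG. The Atp6v0e promoter, counted among the 9, lies 13165 bases from the annotated gene start.

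The genes called lie on several chromosomes (mm10, GENCODE M21 annotation, all protein-coding). Psap (ENSMUSG00000004207) spans chr10:60277627-60302597 on the plus strand, Lamp1 (ENSMUSG00000031447) chr8:13159161-13175338 on the plus strand and Atp6ap2 (ENSMUSG00000031007) chrX:12587801-12617049 on the plus strand. Lgmn (ENSMUSG00000021190) spans chr12:102394084-102439813 and Npc2 (ENSMUSG00000021242) chr12:84754562-84773152, both on the minus strand.

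In the other 8 classes, 0 of the genes passed the adjusted threshold in either direction. The tests numbered 286 gene and class pairs, since genes with low counts in a class were left out (39 genes were tested in classical monocyte-like cells, 27 in regulatory T cell-like cells). Few genes of any kind were called in these classes: 0.502% in classical monocyte-like, 0.75% in nonclassical monocyte-like, 0.689% in neutrophil-like, 0.335% in B cell-like, 0.366% in CD4 T cell-like, 0.406% in CD8 T cell-like, 0.58% in regulatory T cell-like and 0.858% in NK cell-like cells. Read against these shares, a count of 0 is no result about the lysosomal genes. DESeq2 also called 0, and at an unadjusted p under 0.05 there were 4, 4, 4, 2, 3, 0, 1 and 3 genes in the same order of classes, where 8.62%, 9.63%, 9.2%, 7.36%, 8.15%, 8.05%, 9.19% and 8.81% of all genes passed. With no filter on low counts, Lamp1 was called in nonclassical monocyte-like cells (log2 difference 0.40, adjusted p = 0.0366).

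Some genes that rose in alveolar macrophage-like cells had positive differences in monocyte-like or neutrophil-like cells, none of which passed. Lamp1 had 911 and 905 normalised CPM in Lmna-KO nonclassical monocyte-like cells and 665 and 709 in WT, with no overlap (log2 difference 0.40, SE 0.11, adjusted p = 0.168). In neutrophil-like cells Lamp1 had 172 and 161 in Lmna-KO and 124 and 122 in WT (0.44, SE 0.16, adjusted p = 0.378). Psap had 4180 and 4237 normalised CPM in Lmna-KO classical monocyte-like cells and 3373 and 3606 in WT (0.27, SE 0.12, adjusted p = 0.570). In neutrophil-like cells Psap had 630.2 and 566 in Lmna-KO and 771 and 589 in WT, with overlapping libraries and a negative difference (-0.18, SE 0.17, adjusted p = 0.808). Apart from Psap in neutrophil-like cells, the libraries did not overlap in these. The share of all genes with libraries apart in these classes is not given, so the lack of overlap is a description only. Atp6ap2 had 133 and 126 in Lmna-KO classical monocyte-like cells and 89.0 and 104 in WT (0.42, SE 0.13, adjusted p = 0.319). Over the 9 classes its log2 difference ran from 0.042 in B cell-like cells to 0.49 in alveolar macrophage-like cells. For Lamp1 the log2 difference was positive in 8 of the 9 classes (-0.26 to 0.58), and for Npc2 also in 8 (-0.14 to 0.63). Lgmn had 267 and 222 in Lmna-KO nonclassical monocyte-like cells and 175 and 206 in WT (0.36, SE 0.12, adjusted p = 0.326).

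Outside the myeloid classes the smallest adjusted p belonged to Atp6v1a in NK cell-like cells, at 27.8 and 28.6 normalised CPM in Lmna-KO and 46.2 and 51.5 in WT (log2 difference -0.78, SE 0.24, adjusted p = 0.133). In alveolar macrophage-like cells the same gene had a positive difference of 0.39 (adjusted p = 0.104). Psap differed by -0.066 in B cell-like, 0.10 in CD4 T cell-like, -0.062 in CD8 T cell-like and -0.057 in NK cell-like cells. In the lymphocyte classes listed here its differences were thus close to 0 in these libraries, and its value in regulatory T cell-like cells is not given.

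**Figure D4:**
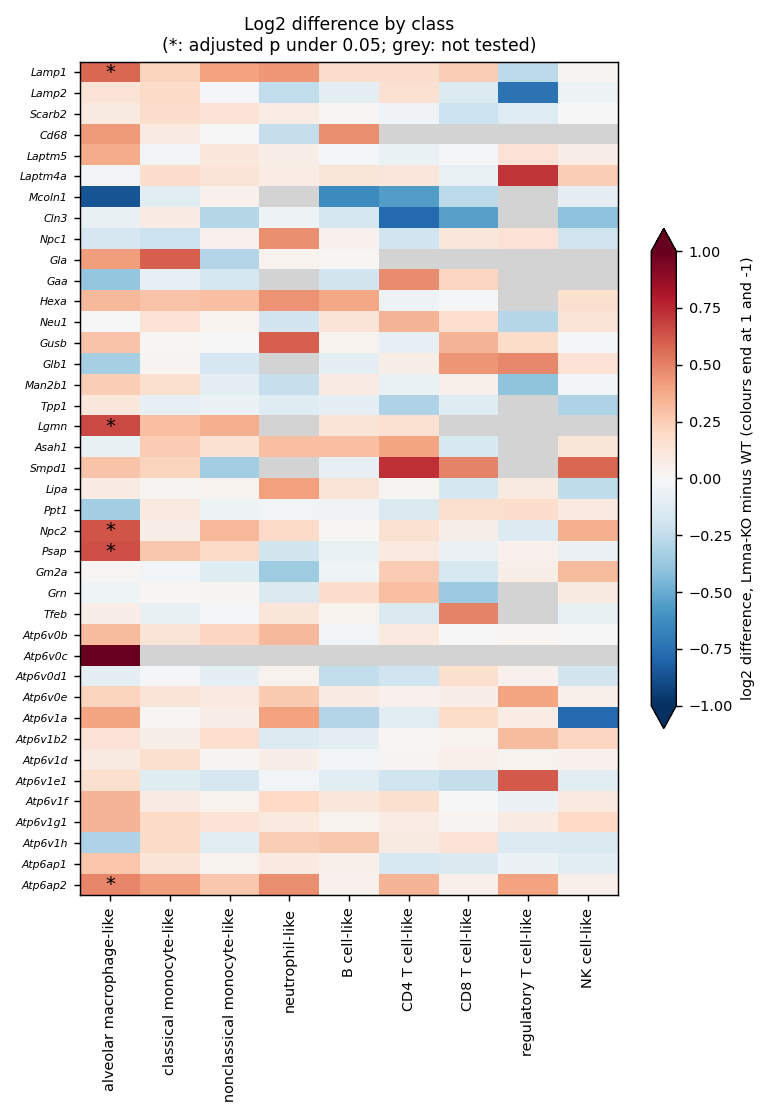
Log2 difference (Lmna-KO minus WT) of the 40 genes in each of the 9 classes; red is higher in Lmna-KO, stars mark an adjusted p under 0.05 and grey cells were not tested. The 5 stars are all in the alveolar macrophage-like column, and colours end at 1 and -1.

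Whether the effect in alveolar macrophage-like cells differed from the mean effect in the other 8 classes was tested directly, by edgeR with a term for each library. Interstitial macrophage-like cells were not among the 8, and Psap and Lamp1 were higher in both Lmna-KO libraries there too (values below). A larger effect in this test therefore does not set alveolar macrophage-like cells apart from other macrophages. Of 34 lysosomal genes with enough counts in every class, 4 had a larger effect in alveolar macrophage-like cells and 0 a smaller one (1.97% and 2.03% of 6661 genes). They were Psap (difference of log2 differences 0.58, SE 0.090, adjusted p = 3.55e-05), Npc2 (0.46, SE 0.095, adjusted p = 0.00177), Lamp1 (0.37, SE 0.092, adjusted p = 0.0115) and Laptm5 (0.31, SE 0.087, adjusted p = 0.0303). Atp6ap2 was not among them (0.20, SE 0.15, adjusted p = 0.541), and Lgmn had too few counts in lymphocyte classes for this test. Asah1 (-0.57, adjusted p = 0.0806), Ppt1 (-0.41, adjusted p = 0.105) and Mcoln1 (-0.73, adjusted p = 0.238) had negative values that did not pass. Leaving out 1 library left 1 to 3 larger effects: 2 without WT 1, 2 (and 1 smaller) without WT 2, 1 without Lmna-KO 1 and 3 without Lmna-KO 2. With library totals alone, 2 were larger and 2 smaller. The spread of each gene was fitted over all classes together, so the SE and p of this test draw on the other classes too. They do not measure the spread of the libraries within alveolar macrophage-like cells alone.

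The summed level of the 40 genes gives the size of the change in the whole list. In alveolar macrophage-like cells it was 20739 and 19543 normalised CPM in Lmna-KO and 15677 and 16183 in WT, a ratio of means of 1.26. The proton pump genes summed to 5088 and 4674 in Lmna-KO and 4035 and 4185 in WT (ratio 1.19), and the other 27 genes to 15651 and 14868 in Lmna-KO and 11643 and 11998 in WT (ratio 1.29). Psap and Laptm5 add the most UMIs to this sum, so it weights them above the other genes. In classical monocyte-like cells the list summed to 14458 and 14649 in Lmna-KO and 12722 and 13545 in WT (ratio 1.11), and in nonclassical monocyte-like cells to 13444 and 13074 in Lmna-KO and 12008 and 12314 in WT (ratio 1.09). Libraries of the genotypes did not overlap in these 3 classes, nor in the CD4 T cell-like and regulatory T cell-like classes. In the neutrophil-like and lymphocyte classes the ratio was 1.01 to 1.06. Some classes too small for a test rose at least as much relative to WT. Interstitial macrophage-like cells summed to 17684 and 15545.5 CPM in Lmna-KO and 13043 and 12496 in WT. Epithelial cell-like cells summed to 6358 and 7078 CPM in Lmna-KO and 3432 and 4510 in WT. In the other small classes summed, the libraries overlapped. The ratio therefore does not set alveolar macrophage-like cells apart from these small classes. An exact two-sided permutation test of 2 against 2 libraries cannot give a p below 0.333, so no p is given for these sums.

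**Figure D5:**
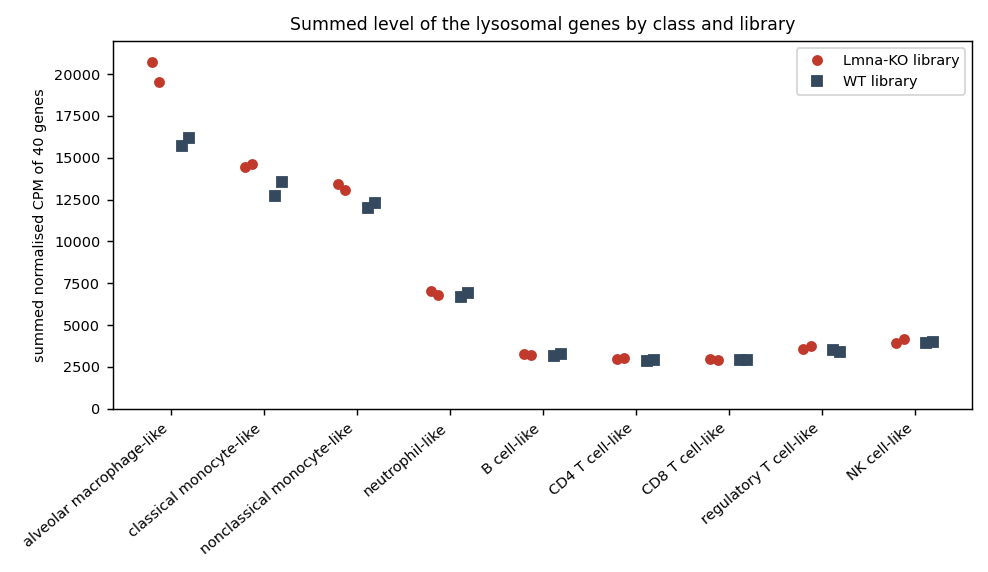
Summed normalised CPM of the 40 genes by class; each point is a library, Lmna-KO circles left of WT squares. Alveolar macrophage-like cells hold the highest sums, 20739 and 19543 in Lmna-KO against 15677 and 16183 in WT.

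Of 94 further genes of lysosomal enzymes, transporters, pump subunits, enzyme sorting and nutrient sensing, 84 were tested in alveolar macrophage-like cells, and 5 were higher and 2 lower in Lmna-KO, with a median log2 difference of 0.12. With 3.36% of all genes called higher and 2.8% lower in this class, these counts are no result about the list, and the genes are given as values. Gpnmb, a glycoprotein of lysosomes and melanosomes, had 521 and 493 normalised CPM in Lmna-KO and 275 and 202 in WT (log2 difference 1.09, SE 0.15, adjusted p = 8.91e-06). Acp5, the tartrate-resistant acid phosphatase of osteoclasts and macrophages, had 265 and 295 in Lmna-KO and 135 and 154 in WT (0.95, SE 0.15, adjusted p = 3.56e-05). Ggh, the gamma-glutamyl hydrolase, had 165 and 119.8 in Lmna-KO and 69.0 and 71.8 in WT (1.02, SE 0.17, adjusted p = 0.000132). These 3 differences were larger than those of the 5 genes above. Lamtor5, a part of the Ragulator scaffold for nutrient sensing, rose by 0.68 (adjusted p = 0.00838), and Rnaset2a, a lysosomal ribonuclease with a near-identical copy in the mouse genome, by 0.76 (adjusted p = 0.0247). The genes that fell were Sort1, the sorting receptor sortilin, at 176 and 174 in Lmna-KO and 289.9 and 269 in WT (-0.68, adjusted p = 0.00393), and Slc15a3, a lysosomal histidine and peptide transporter, at 171 and 201 in Lmna-KO and 311 and 266 in WT (-0.64, adjusted p = 0.00799). By role, 3 of 31 other hydrolases, 1 of 22 other membrane proteins and 1 of 13 nutrient-sensing genes rose, while 1 membrane transporter and 1 of 13 sorting genes fell and 0 of 5 further pump subunits changed.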

How the data were processed

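Single-cell RNA was measured in sorted lung immune cells. The deposited matrices hold whole-number UMI counts per gene and barcode; Cell Ranger 3.0.2, Seurat 3.0.0 and mm10 are named in the submitters' processing notes, and per the labels the kit reads 3-prime ends, hence no division by gene length, and levels are compared within a gene. The matrices hold no barcode under 500 UMIs. Free RNA was not subtracted.

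The filter asked for 200 genes or more and no more than 10% mitochondrial UMIs (15181 of 16528 barcodes), and the 461 cells with the highest doublet scores (Scrublet in scanpy 1.11.5, a share set by library size) were then removed. Leiden clusters (2000 variable genes without the 40 described genes, 30 principal components, resolution 1) were named from 25 marker classes; the naming thresholds, and the minimum of 10 cells used with the stricter cell filter, were set after the clusters were seen, and 2.77% to 3.51% of cells stayed unnamed. Names are rebuilt, hence "-like". UMIs were summed per library and class and tested with edgeR 4.0.16 (filterByExpr, TMM, robust quasi-likelihood fit), Lmna-KO minus WT, adjusted over all genes of a class at 0.05; the test was also tried on simulated data. Normalised CPM uses TMM factors within a class. The difference of effects used genes with at least 10 UMIs in every class. Errors beside means are SDs of 2 libraries. DESeq2 1.42.0, other scalings, filters and class definitions and leaving out each library were the alternatives.

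Full values are given for genes called in a class and the 6 further genes with the highest level in alveolar macrophage-like cells. The genes and lists were chosen with earlier results of these data known. Coordinates are from GENCODE M21 and promoters from RefSeq.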

Additional observations from a re-analysis of the deposited data

Results flagged for a closer look

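In 4 genes the Lmna-KO minus WT difference in alveolar macrophage-like cells was larger than the mean difference in the other 8 classes, by edgeR's contrast in a fit over library and class with library as a block. The difference between the log2 differences was 0.58 for Psap, 0.46 for Npc2, 0.37 for Lamp1 and 0.31 for Laptm5, with adjusted p of 3.55e-05, 0.00177, 0.0115 and 0.0303. Laptm5 passed this contrast although its own difference in alveolar macrophage-like cells did not (adjusted p = 0.0955). The 2 tests are not alike, since the contrast fits the spread of a gene over all classes together. With library totals as the only scaling, 2 lysosomal genes had a larger effect and 2 a smaller one. The Lmna-KO alveolar macrophage-like class held 52 and 34 cells, against 219 and 232 in WT, and the part of this inequality in the 4 results was not tested. Interstitial macrophage-like cells were not among the 8 classes, and Psap and Lamp1 were higher in both Lmna-KO libraries there too (values below).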

How the results depend on the processing

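The direction of the 5 genes called in alveolar macrophage-like cells held in all 13 alternatives, and Psap, Lgmn, Npc2, Lamp1 and Atp6ap2 lost their call in 2, 3, 3, 4 and 9 of them. The number of lysosomal genes higher in Lmna-KO was 3 with the stricter cell filter and 0 to 5 with 1 library left out; the cause was not tested. The number lower was 1 (Mcoln1) with no filter on low counts and 1 (Mcoln1 again) with the replicate block, and 0 otherwise. Over all genes, 302 were higher and 252 lower: DESeq2 gave 101 and 74, the stricter cell filter 143 and 96, and leaving out 1 library 22 to 233 and 14 to 199; with doublets kept 158 were lower. With no filter on low counts the median log2 difference of all genes was -0.11, so every difference there is relative to that. In the other classes the count was 1 with no filter on low counts. The number of genes with a different effect in alveolar macrophage-like cells was 1 to 3 with 1 library left out. With replicate number as a block, 4 genes were higher in alveolar macrophage-like cells. Same-numbered libraries deviated together with a correlation of 0.071 there and -0.061 to 0.19 over the classes. These low values show no clear pairing by number, but 2 libraries per genotype cannot exclude one. With 1 library left out, the lone library of a genotype is assumed to vary like those of the other. The direction of the 5 genes could hardly have turned in those fits, since both Lmna-KO libraries lay above both WT libraries. Regulatory T cell-like cells gave no value under the stricter cell filter.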

Other observations

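Interstitial macrophage-like cells were too few in WT (21 and 11 cells) for a test, against 35 and 33 in Lmna-KO, and the values here are descriptions of genes chosen after they were seen. Psap stood at 4561 and 4644 CPM in Lmna-KO interstitial macrophage-like cells and at 2485 and 2657 CPM in WT, and Lamp1 at 1361 and 1110.2 CPM in Lmna-KO and 706 and 625 CPM in WT. Atp6ap2 stood at 354 and 246 CPM in Lmna-KO and 114 and 125 CPM in WT. For these 3 genes both Lmna-KO libraries lay above both WT libraries, and the share of all genes doing so in this class is not given. The class was made of 2 clusters, which the genotypes filled unequally. The cluster led by Retnla, Ccl7 and Mmp12 held 27 and 26 Lmna-KO cells and 5 and 3 WT cells, and the cluster led by the complement genes C1qa, C1qb and C1qc with Folr2 held 8 and 7 Lmna-KO cells and 16 and 8 WT cells. Within the first cluster both Lmna-KO libraries lay above both WT libraries for Psap and Lamp1, with WT values from 5 and 3 cells. Psap was at 5215 and 4898 CPM in Lmna-KO and 3596 and 3171 CPM in WT in that cluster. Lamp1 was at 1341 and 1136 CPM in Lmna-KO and 479 and 378 CPM in WT in that cluster. Within the second cluster Psap was at 2232 and 3688 CPM in Lmna-KO and 2051 and 2388 CPM in WT, where the libraries overlapped. Lamp1 was there at 1428 and 1011 CPM in Lmna-KO and 795 and 754 CPM in WT. Lgmn, also called in alveolar macrophage-like cells, had 730 and 390 CPM in Lmna-KO in the first cluster and 838 and 342 CPM in the second. In WT Lgmn had 295 and 27.0 CPM in the first cluster, from 29 and 2 UMIs, and 541 and 923 CPM in the second. Both Lmna-KO libraries thus lay above both WT libraries in the first cluster, and the libraries overlapped in the second. Over the whole class, Lmna-KO 1 lay above and Lmna-KO 2 below both WT levels given above, so the libraries overlapped there.

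Although the level per UMI was higher, alveolar macrophage-like cells supplied a smaller part of the lysosomal transcripts of the Lmna-KO libraries. They held 9.18% and 8.14% of all UMIs of the 40 genes in Lmna-KO and 33.3% and 28.8% in WT. For Lipa the shares were 20.6% and 21.7% in Lmna-KO and 61.8% and 50.3% in WT, and for Psap 9.50% and 9.18% in Lmna-KO and 32.4% and 28.1% in WT. The class held 1.42% and 0.975% of cells in Lmna-KO and 5.74% and 6.17% in WT.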
